A study of Homo sapiens with 12 samples.

Results

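Peaks of 5 histone H3 marks were examined along the row of kallikrein genes KLK5 to KLK14 in RWPE-1 cells. The row was taken as chromosome 19 from 51440000 to 51590000 (hg19), and each peak that shared at least 1 base with it was a member. Though members and lists were chosen with earlier results of these data known, this rule used position only and no measured value. It gave 39 of the 457217 peaks on chromosomes 1 to 22 and X: 3 of H3K4me3, 8 of H3K27ac, 19 of H3K4me1, 9 of H3K27me3 and 0 of H3K36me3.

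RWPE-1 is a line of normal prostate epithelial cells immortalised with HPV18. All libraries came from low-passage cells in full keratinocyte serum-free medium with bovine pituitary extract and EGF, and no group was treated. Each mark was profiled by chromatin immunoprecipitation and sequencing in 2 replicates, which were deposited as 1 combined peak list, so no value below has a replicate error and no test over replicates was possible. The lists hold no read counts, and the depth behind them is unknown. The labelled cell type was not checked against marker genes, because an hg19 annotation was not at hand.

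The kallikrein-related peptidases are secreted serine proteases, made as inactive precursors and encoded by genes that lie side by side. KLK5 is a trypsin-like member that can activate KLK7 and KLK14. KLK7 is chymotrypsin-like, and these enzymes cleave the cell-cell junctions of shedding skin under the control of the inhibitor LEKTI. KLK8, also called neuropsin, is known from skin and brain, and KLK10 was first described as NES1, a gene of normal epithelial cells. KLK6, KLK11, KLK12 and KLK13 are further epithelial members, and KLK9 is less well studied. On the other side of KLK5 lie KLK1, the kinin-releasing tissue kallikrein, KLK15, and KLK3, KLK2 and KLK4, which are known as prostate genes under androgen control. KLK3 encodes prostate-specific antigen. H3K4me3 marks promoters, H3K27ac active promoters and enhancers, H3K4me1 enhancers and promoter flanks, H3K36me3 transcribed gene bodies and H3K27me3 Polycomb repression.

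The positions of KLK5 (51446559 to 51456344) and KLK14 (51580780 to 51587502) came with the selection rule and were not checked against an annotation. Both genes are on the minus strand, so each starts at its higher coordinate. In RefSeq's table of GRCh38.p14 the protein-coding genes from KLK5 to KLK14 are the 10 kallikreins in numerical order, with the noncoding LOC105372442 between KLK5 and KLK6. That table was used for order only. KLK6 to KLK13 therefore lie between KLK5 and KLK14 in that order, but peaks there are given by position and were not assigned to a gene.

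The promoter windows of the end genes are shown because their starts could be set against the peaks. They hold 250 bases before and 50 after the start in RefSeq's GRCh38.p14, minus strand, at chr19:50952989-50953288 for KLK5 and chr19:51084161-51084460 for KLK14. It was not checked that these starts are the ones used in hg19. Capitals mark CpG, of which KLK5 has 7 and KLK14 has 2.
KLK5: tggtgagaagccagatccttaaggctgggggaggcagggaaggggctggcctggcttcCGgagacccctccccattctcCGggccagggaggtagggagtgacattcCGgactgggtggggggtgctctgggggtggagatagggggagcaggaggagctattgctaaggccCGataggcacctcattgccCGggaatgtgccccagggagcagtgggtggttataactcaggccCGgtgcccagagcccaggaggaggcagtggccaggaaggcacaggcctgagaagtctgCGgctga
KLK14: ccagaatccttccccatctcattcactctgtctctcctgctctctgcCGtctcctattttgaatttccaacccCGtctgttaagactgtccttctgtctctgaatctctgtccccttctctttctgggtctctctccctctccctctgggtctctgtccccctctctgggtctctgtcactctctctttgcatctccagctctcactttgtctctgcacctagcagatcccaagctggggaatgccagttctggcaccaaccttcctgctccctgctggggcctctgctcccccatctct

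Most members had promoter windows poorer in CpG than the median window of all genes, though several were near it. CpG is the dinucleotide that is methylated in vertebrate DNA and dense in CpG islands. RefSeq had 16 windows for 9 of the 10 genes (all but KLK8), some of them overlapping. The ratio of observed to expected CpG ran from 0.111 (KLK14) to 0.614 (KLK13), with a median of 0.331, against 0.579 over 35116 windows of all genes. Of all windows, 43.6% to 52.0% had a lower ratio than those of KLK6, KLK7 and KLK13, and 10.8% a lower one than the lowest KLK14 window. A ratio of at least 0.6 was found in 1 of the 16, the lower of the KLK13 windows, against 48.9% of all windows. The 6 windows of KLK15, KLK3, KLK2 and KLK4 were poorer still, with a median of 0.0905.

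The letters TATAA on either strand, the core of the TATA box, occurred in 5 of the 16 windows, from KLK5, KLK7 and KLK14, against 20.4% of all windows. The KLK14 window printed above is not among them. GGGCGG, the GC box, was in 10 windows of 6 genes (KLK6, KLK7, KLK9, KLK11, KLK13 and KLK14), against 45.0%. Some windows of the same gene overlap, so the same letters can count more than once in the 5 and the 10. The letters TGANTCA, bound by AP-1, were in 0 of the 16 against 7.71%, and AGAACA, part of androgen receptor elements, in 0 against 14.8%. Among the neighbours, AGAACA was in the KLK3 window alone. None of these motifs contains another. A match describes letters and not binding, and no match says only that the letters are not in the window.

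H3K4me1 was the most extensive mark of the KLK5 to KLK14 row, H3K27ac came next, and the row held no H3K36me3 peak. H3K4me1 covered 23.4 kb, or 15.6%, of the row, H3K27ac 10.7 kb or 7.13%, H3K27me3 9.74 kb or 6.49% and H3K4me3 5.25 kb or 3.50%. Every one of these 4 shares was above that of chromosomes 1 to 22 and X together, which were 6.04%, 3.72%, 2.39% and 1.52% in the same order. Chromosome 19 is dense in all marks, and against it the row was close to average in H3K4me1 (14.5%), lower in H3K27ac (8.95%) and H3K4me3 (5.30%) and higher in H3K27me3 (4.93%). H3K36me3 covered 15.8% of chromosome 19.

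**Figure D1:**
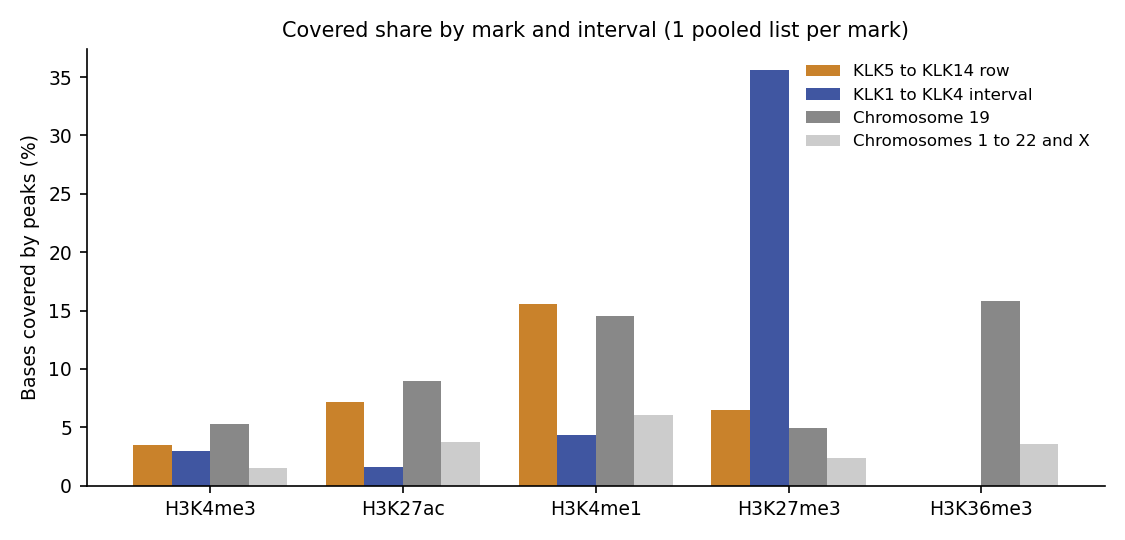
Bars give the percent of bases covered by peaks of each mark in the KLK5 to KLK14 row, the KLK1 to KLK4 interval, chromosome 19 and chromosomes 1 to 22 and X, from 1 pooled list per mark and so without error bars. H3K27me3 reached 35.6% in the KLK1 to KLK4 interval and 6.49% in the row, and H3K36me3 was at 0 in both.

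When all chromosomes were cut into 18327 tiles as long as the row that held a peak of any mark, 86.4% of the tiles had fewer bases in H3K4me1 than the row. The shares were 80.6% for H3K27ac, 84.8% for H3K4me3 and 88.2% for H3K27me3. Among the 369 tiles of chromosome 19 they were 55.0%, 50.7%, 37.4% and 73.7%. The row therefore stood in the upper part of the genome in 4 marks, and on its own chromosome only its H3K27me3 was clearly above the middle. These ranks are descriptions without a test.

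Peaks that touched were joined into 25 separate sites, and 17 of these carried a single mark. H3K4me1 alone made 10 sites, H3K27me3 alone 7, and H3K27ac with H3K4me1 made 4. The other 4 sites were the 3 with H3K4me3 and 1 of H3K4me1 with H3K27me3. The share of single-mark sites over the genome was not computed. Marks standing alone were common in the lists, so these counts do not set the row apart. Of all H3K4me1 peaks, 65.7% touched none of H3K27ac, H3K4me3 and H3K27me3 (57.2% on chromosome 19). Only 8.35% of all H3K27me3 peaks touched any of H3K4me3, H3K27ac and H3K4me1 (16.9% on chromosome 19). In bases, 79.2% of the row lay in no peak, 8.10% in H3K4me1 alone, 4.46% in H3K27ac with H3K4me1 and 4.02% in H3K27me3 alone. The longest stretch without any peak ran for 14.0 kb from 51457845 to 51471861, upstream of the KLK5 start.

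**Figure D2:**
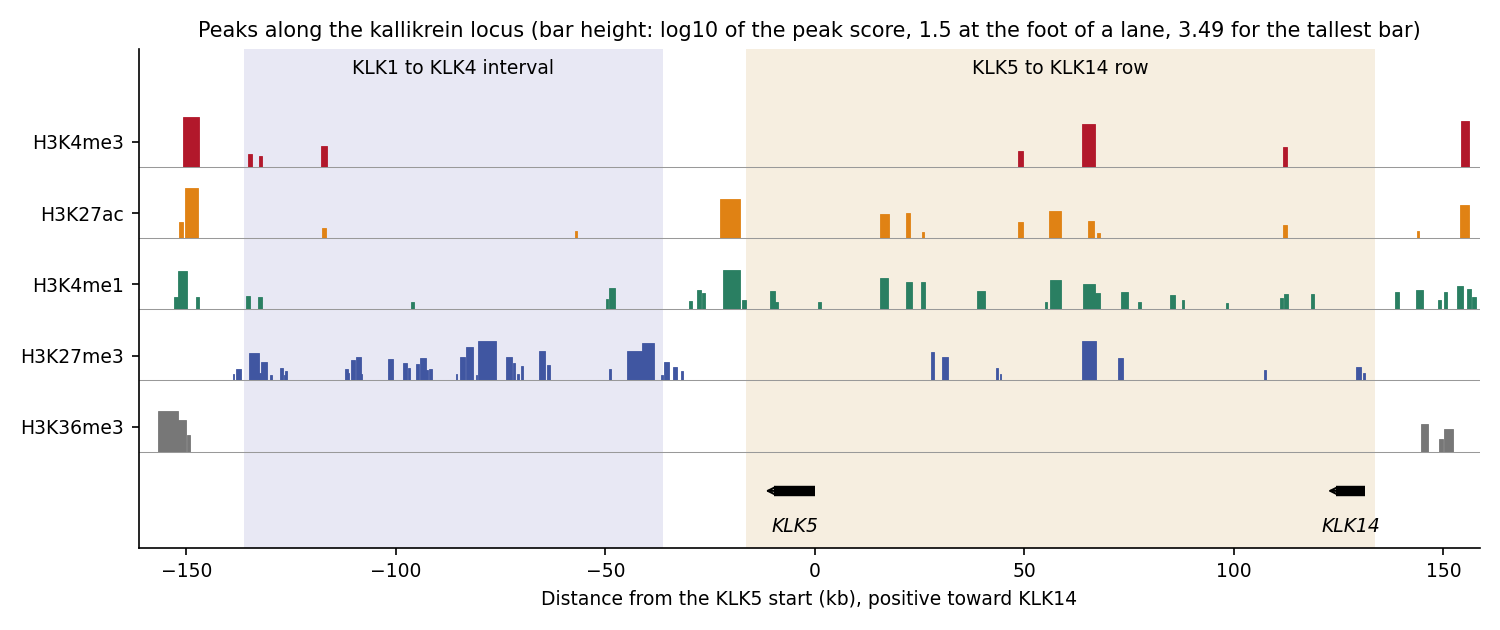
Each bar is 1 peak of the mark named at the left, drawn at its distance in kb from the KLK5 start, with its height on a log10 scale of the peak score. H3K27me3 has 34 peaks in the KLK1 to KLK4 interval, over 35.6% of its bases. H3K27ac and H3K4me1 peaks follow from just below the row, and H3K36me3 lies only outside the locus on either side.

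H3K4me3 marked 3 places in the row, all between KLK5 and KLK14, and 1 of them was far larger than the others. The peak from 51520070 to 51523197 was 3128 bases wide with a score of 1622, taken to be the peak caller's -10 times log10 of p. In the H3K4me3 list 71.6% of peaks scored lower and 91.1% were narrower. The peak from 51504832 to 51505884 was 1053 bases wide with a score of 139, and that from 51567979 to 51569048 was 1070 bases wide with a score of 190. These smaller peaks stood below the list's median score of 325. The large peak lay 14.2 kb above the lower one and 44.8 kb below the upper one.

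All 3 H3K4me3 peaks touched H3K27ac, as did 61.7% of the whole list and 66.1% of its peaks on chromosome 19, and with 3 peaks the exact (Clopper-Pearson) 95% interval of the share was 29.2% to 100%. H3K4me1 touched 2 of the 3 (49.6% of the list, 65.9% on chromosome 19) and H3K27me3 touched 1 (15.0% and 14.1%). The lower peak was wholly inside an H3K27ac peak and touched no H3K4me1 or H3K27me3. The upper one was covered by H3K27ac over 84.9% and by H3K4me1 over 94.5% of its length, with no H3K27me3. It touched 2 separate H3K4me1 peaks, which lay within it over 18.3% and 77.1% of their own lengths. Such intervals take each peak as independent, which neighbours are not, and hold counting error alone.

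The large H3K4me3 peak carried all 4 marks found in the row. H3K27me3 covered 97.3% of it, H3K4me1 92.1% and H3K27ac 50.8%. Its H3K27ac peak, from 51521432 to 51523021, lay wholly inside the H3K4me3, H3K4me1 and H3K27me3 peaks, on the side of higher coordinates. The shared part, 1590 bases, was the only stretch of the row in 4 marks. H3K27me3 ran from 51520155 to 51523462 with a score of 1245, higher than 96.9% of its list, whereas the H3K27ac peak scored 149, higher than 44.4% of its own list. In bulk chromatin, marks on the same molecule, on different alleles and in different cells cannot be told apart.

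Such a combination was uncommon in the H3K4me3 list. H3K27ac and H3K27me3 together touched 1250 H3K4me3 peaks (4.36%, 5.16% on chromosome 19), and H3K4me1 as well touched 511 of them (1.78% and 3.35%). Of the 1250, 89.9% were narrower than the peak in the row, 81.0% were covered less by H3K27me3 and 14.5% were covered less by H3K27ac. Their median cover was 61.5% by H3K27me3 and 80.8% by H3K27ac. The peak between KLK5 and KLK14 was thus among the wider of its kind, with more of its length in H3K27me3 and less in H3K27ac than most.

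**Figure D3:**
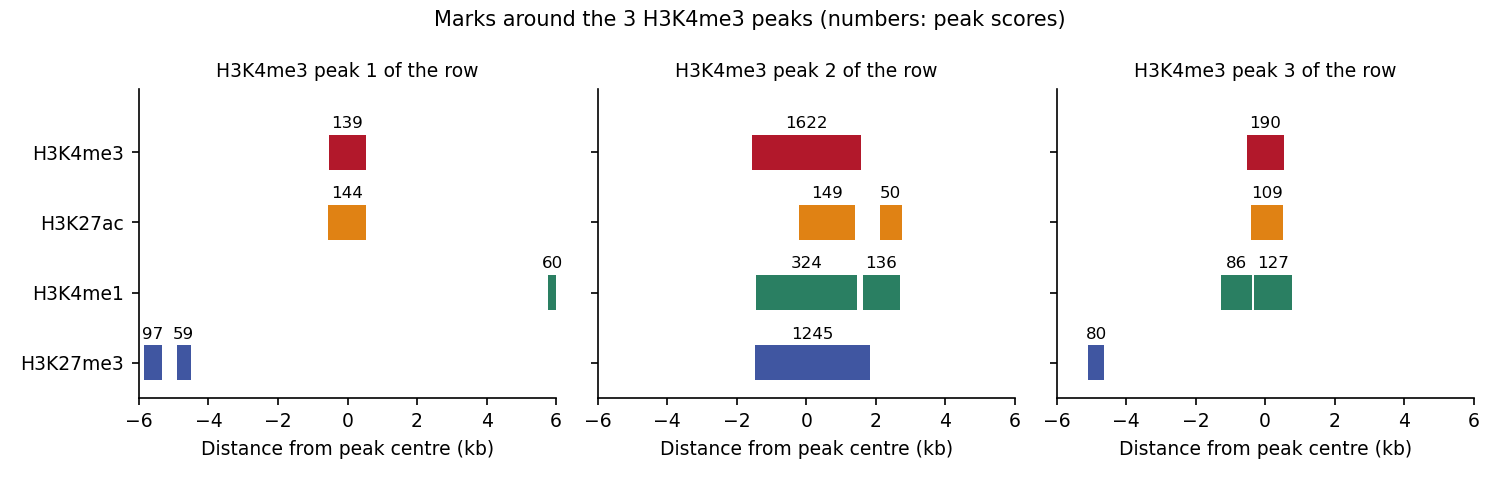
Horizontal bars are the peaks of 4 marks within 6 kb of the centre of each H3K4me3 peak of the row, in order of position, with the peak score printed above. The middle panel shows H3K27me3 (1245) under 97.3% of the H3K4me3 peak (1622) and H3K27ac (149) under its upper part, and in the other panels H3K27me3 stands apart from H3K4me3.

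H3K27ac formed 8 peaks, none of which outscored more than 63.1% of its list. The strongest, from 51512206 to 51514989, was also the widest at 2784 bases and had a score of 391. It was followed by those from 51477971 to 51479105 (score 319) and from 51471910 to 51473904 (score 293). The other 5 scored between 50.2 and 149, and the list's median was 190. H3K4me3 touched 3 of the 8 (27.7% of the list, 48.8% on chromosome 19). H3K4me1 touched 7 (79.5% and 87.2%, exact interval for the row 47.3% to 99.7%). H3K4me1 without H3K4me3 was found at 5 of the 8, the strongest 3 among them (59.3% of the list, 46.1% on chromosome 19). H3K27me3 touched 1 (2.13% and 4.25%). The only H3K27ac peak without H3K4me1 was the one at the lower H3K4me3 peak.

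Along the row, H3K27ac lay in 3 groups when peaks no more than 10 kb apart were joined. The largest spanned 19.6 kb from 51504800 to 51524375, with 4 peaks over 6.10 kb, and included the large H3K4me3 peak. It ranked 4473 of 30634 such clusters by covered bases. The group nearest to KLK5 spanned 10.5 kb from 51471910 to 51482435, with 3 peaks over 3.68 kb and no H3K4me3. The last was the single peak of 908 bases at the upper H3K4me3 peak. No H3K27ac was found in the 43.7 kb before that peak, in the first 31.9 kb of the row or in its last 21.0 kb. H3K27ac thus held 6 of the 15 bins of 10 kb.

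H3K4me1 was spread more evenly, with 19 peaks in 12 of the 15 bins. H3K27ac touched 8 of them (32.2% of the list, 37.5% on chromosome 19) and H3K4me3 touched 3 (9.93% and 22.9%). A group of 10 touched none of H3K27ac, H3K4me3 and H3K27me3 (65.7% and 57.2%). H3K27me3 touched 3 (1.64% of the list, 4.47% on chromosome 19), but these 3 met only 2 H3K27me3 peaks between them. The exact interval of 3.38% to 39.6% takes the 3 as independent, so it cannot place the row above either share. The peaks with the highest scores were those from 51471862 to 51473799 (534), from 51512401 to 51515037 (457), from 51478041 to 51479615 (401) and from 51481542 to 51482651 (389). All 4 touched H3K27ac and no H3K4me3, and at least 89.6% of the H3K4me1 list scored lower than each. The widest, 2880 bases, was that at the large H3K4me3 peak, which lay wholly inside the H3K4me3 and H3K27me3 peaks there. Of the 10 H3K4me1 peaks without a partner mark, the highest score was 172, at 51495094 to 51496905, and the lowest 58.6, at 51554528 to 51555014.

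H3K27me3 was scattered in 9 peaks rather than continuous. Joined where no more than 5 kb apart, they made 6 short domains, the largest being the single peak of 3.31 kb at the large H3K4me3 peak. The next by covered bases was the pair from 51483927 to 51488059, 4.13 kb long, with scores of 434 and 270. Another peak, from 51528640 to 51529767, scored 247 and shared 451 bases with H3K4me1. The remaining 5 peaks scored between 58.8 and 111. H3K27ac touched 1 of the 9 (1.90% of the list, 4.42% on chromosome 19) and H3K4me3 touched 1 (5.90% and 10.2%). H3K4me1 touched 2 (3.81% and 11.8%), and these were also the only peaks with any of the 3 active marks (8.35% and 16.9%, exact interval for the row 2.81% to 60.0%).

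Of the 8 H3K27me3 peaks that touched no H3K27ac, 6 had it within 5 kb, against 5.50% of such peaks over all chromosomes and 9.68% on chromosome 19. The distance was chosen after these values were seen, and neighbouring peaks share the same H3K27ac peaks. The pair began 1.49 kb above the H3K27ac peak that ended at 51482435, its upper peak lay 4.17 kb away, and 4 others had H3K27ac within 4.77 kb. The last 2, at KLK14, were 12.3 and 13.4 kb from the nearest H3K27ac peak, which lay above the row.

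H3K36me3 had no peak from 51307112 to 51601004, a stretch of 294 kb that held all 10 members and the KLK1 to KLK4 interval. Longer gaps between neighbouring H3K36me3 peaks numbered 22 of 6173 on chromosome 19 and 2145 of 113712 over all chromosomes. A tile of the row's length without any H3K36me3 peak was found in 14.1% of cases on chromosome 19 and in 46.2% over all chromosomes. Tiles with the same set as the row, that is with the other 4 marks present and H3K36me3 absent, made up 2.98% (11 of 369) on chromosome 19 and 7.79% over all. No peak means that no place passed the caller's threshold, not that the mark was absent. How the caller was set was not given in any source at hand.

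The KLK14 start lay in a weak H3K27me3 peak and the KLK5 start in no peak. The nearest peak to the KLK5 start was an H3K4me1 peak 804 bases upstream with a score of 60.6, and the nearest H3K27ac was 15.6 kb upstream, the nearest H3K27me3 27.6 kb and the nearest H3K4me3 48.5 kb. The KLK5 gene itself met 2 H3K4me1 peaks at its lower end, over 905 of its 9786 bases, and no other mark. The KLK14 start lay inside an H3K27me3 peak from 51587113 to 51587618 with a score of 63.2, higher than 24.3% of its list. At scores of at least 100 this peak is left out, and neither start used here lies in a peak. A further H3K27me3 peak, from 51585523 to 51586544, scored 111 and is kept at that cut, and together they covered 21.0% of the gene. RefSeq also has KLK14 windows at chr19:51082807-51083106 and chr19:51082838-51083137 (GRCh38.p14), below the printed one. The starts of those windows were not set against the peaks. KLK14 had no peak of H3K4me3, H3K27ac or H3K4me1, and the nearest of these to its start was H3K4me1 7.21 kb upstream. In the RefSeq windows printed above, KLK14 has 2 CpG and KLK5 has 7.

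At the boundary to KLK1 to KLK4, the last H3K27me3 peak was followed within 10 kb by H3K4me1 and by 1 H3K27ac peak. The next H3K27ac peak came 33.5 kb further on, beyond KLK5. In the interval from 51320000 to 51420000, 34 H3K27me3 peaks covered 35.6 kb or 35.6%, against 6.49% of the row. H3K27ac covered 1.60% there, against 7.13% of the row, and H3K4me1 4.38%, against 15.6%. H3K4me3 covered 2.96% of the interval and 3.50% of the row, a ratio of row to interval of 1.18, which rose to 2.54 with scores of at least 100, since 2 of the 3 peaks of the interval scored lower. All 10 bins of the interval held H3K27me3, against 6 of 15 bins of the row, and the most covered bin reached 76.5%.

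H3K27me3 continued past the interval and ended at 51424952. The first H3K4me1 peak began 1.39 kb further on, at 51426341, and H3K27ac began at 51433693. The H3K27ac peak from 51433693 to 51438404 was 4712 bases wide with a score of 1132, higher than 79.9% of its list. Its H3K4me1 partner, from 51434303 to 51438464, had a score of 1211, above 98.8% of the list. It lay 1.60 kb outside the row and 8.15 kb below the lower end of KLK5, which on the minus strand is the gene's 3′ end. It therefore was no member, yet its score was higher than that of any of the 8 members. The member next to the row's lower edge was the H3K4me1 peak from 51445645 to 51446772 (score 163), and the peak just outside was that from 51439046 to 51439794 (score 75.8). At the upper edge, the last H3K4me1 peak inside ended at 51575416 and the first outside began at 51594712.

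**Figure D4:**
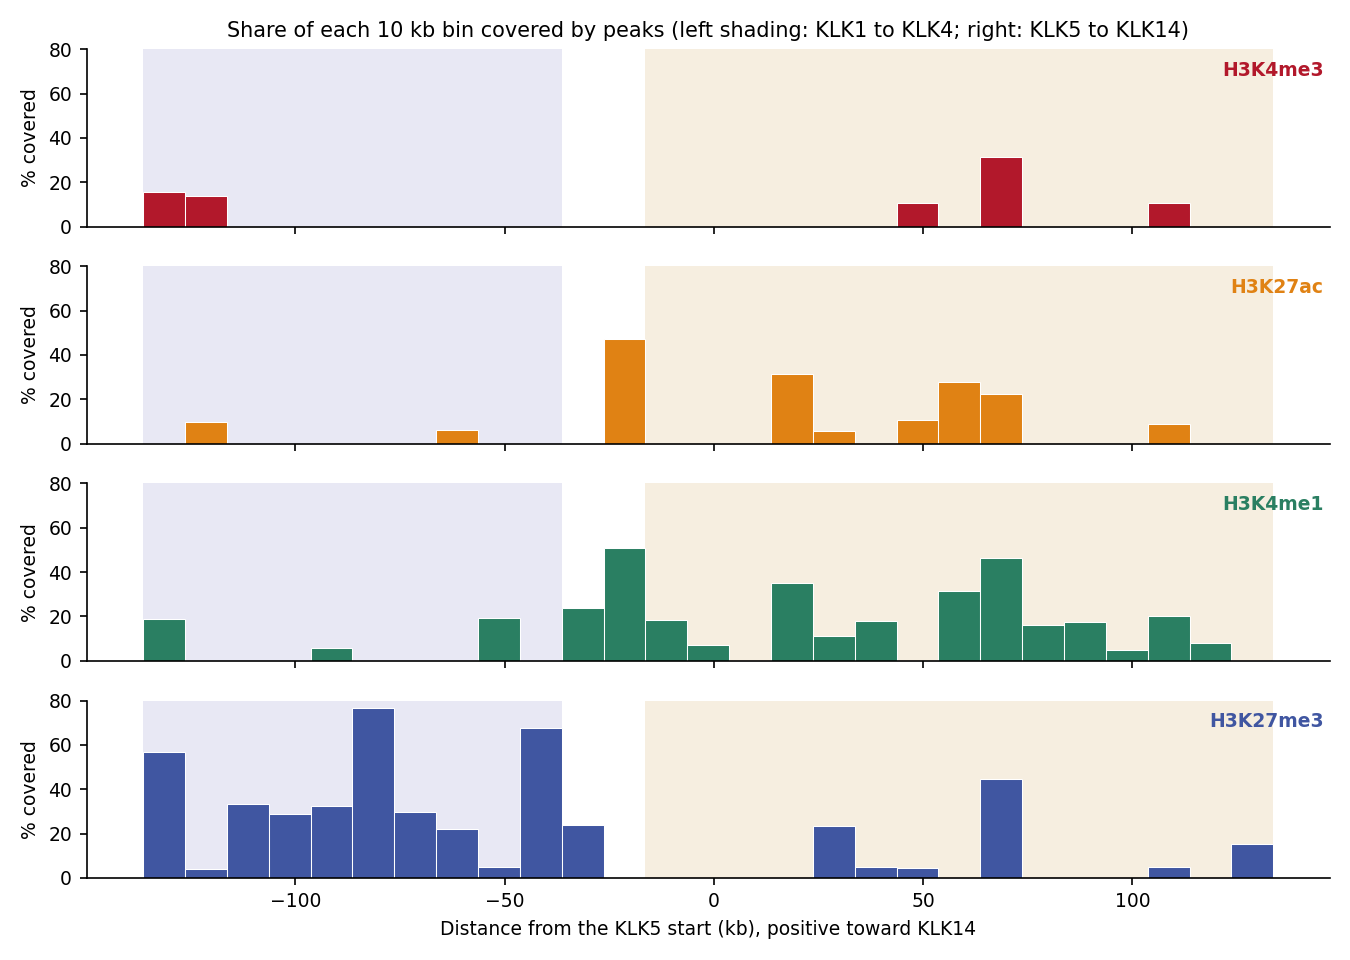
Bars give the percent of each 10 kb bin covered by peaks of H3K4me3, H3K27ac, H3K4me1 and H3K27me3, against distance in kb from the KLK5 start, without error bars since each mark has 1 pooled list. H3K27me3 reaches 76.5% of a bin in the left shaded KLK1 to KLK4 interval and is at 0 from the end of the boundary until the fifth bin of the row, while H3K27ac peaks at 47.1% between the shaded parts.

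From 51424952 no H3K27me3 peak followed for 59.0 kb, until 51483927. This stretch held KLK5, the strong H3K27ac peak below the row and the group of 3 H3K27ac peaks nearest to KLK5. Which of KLK6 to KLK13 also lay in this stretch was not determined. Beyond it lay all 9 H3K27me3 peaks of the row and 5 of its 8 H3K27ac peaks, 1 of them inside H3K27me3. H3K4me3 was missing for longer, from 51339908 to 51504832, a gap of 165 kb that spanned the boundary, and 37 of 1878 such gaps on chromosome 19 and 4968 of 28616 over all chromosomes were longer.

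The KLK1 to KLK4 interval had 3 H3K4me3 peaks of its own, with scores of 86.3, 99.0 and 220, all below the list's median. The lower pair, at 51320980 to 51321890 and 51323744 to 51324413, touched H3K27me3 and H3K4me1 and no H3K27ac. The other, at 51338529 to 51339908, touched H3K27ac over 70.4% of its length and no H3K27me3. Only 2 H3K27ac peaks were found, with scores of 82.3 and 59.9, against 8 in the longer row. Per 100 kb these were 2.00 and 5.33. The widest H3K27me3 peak of the interval, 4256 bases from 51375868 to 51380123, scored 1162, close to the 1245 of the strongest in the row. The intervals thus differed in how many H3K27me3 peaks they held more than in the score of the strongest.

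**Figure D5:**
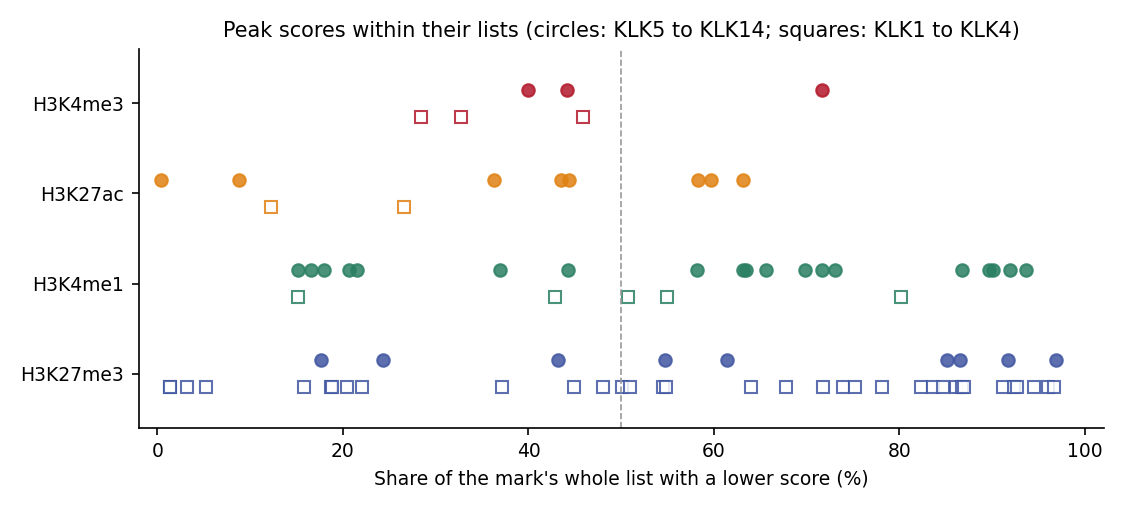
Each point is 1 peak, placed by the percent of its mark's whole list with a lower score, with circles for the KLK5 to KLK14 row, squares for the KLK1 to KLK4 interval and a dashed line at the list median. H3K27ac circles reach 63.1% at most, and H3K4me1 and H3K27me3 circles reach 93.6% and 96.9%.

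The row's peaks lay on both sides of their lists' medians in each mark. Above the median, which by construction splits a list evenly, were 3 of 8 H3K27ac peaks, 1 of 3 H3K4me3 peaks, 12 of 19 H3K4me1 peaks and 6 of 9 H3K27me3 peaks. In the KLK1 to KLK4 interval these were 0 of 2, 0 of 3, 3 of 5 and 22 of 34. Counts this small are a description and set no mark of the row apart. A score rises with depth and with peak width, and these counts compare a peak with its own list only.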

How the data were processed

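Peak lists of 5 histone marks from RWPE-1 cells were used, each combining 2 replicates per the labels, which do not say whether these were separate cultures. The submitters' processing notes name build hg19, CASAVA 1.8.2, Bowtie2 and MACS 1.4. Control, duplicate filter and how replicates were combined: not given in the sources used here. A score that the authors deposited for each peak was read, from its values (lowest 50.0, ceiling 3100), as -10 times log10 of p. Input and DNase data were not analysed.

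Positions are 1-based. Peaks off chromosomes 1 to 22 and X were dropped (179 to 555 per list), and chromosomes ended at the last peak of any mark. An overlap was 1 base or more. The members and lists were chosen with earlier results of these data known. The named peaks were all H3K4me3 peaks of the row, the widest and highest-scoring of each other mark, and those at the KLK5 and KLK14 starts and at the edges of both intervals. Others were named after their values were seen. SPINK5, SPINK6, SPINK9, F2RL1, CDSN, DSG1, DSC1 and ST14 were listed for use only with hg19 positions, and none was at hand. Alternatives were scores from 100 up, overlap of 50% of the smaller peak, other row edges, joining gaps of 1, 5 and 20 kb, and other tiles. Overlap, cover and joining were checked on simulated intervals. Python 3.11.15, numpy 2.4.6, scipy 1.17.1 and matplotlib 3.10.9 were used.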

Additional observations from a re-analysis of the deposited data

How the results depend on the processing

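Of 95 values recomputed under an alternative, 83 were counted as unmoved and 12 as moved. Unmoved meant within 1.5 times the main value, or for shares within its 95% binomial interval. For shares this rule could hardly fail, since intervals from so few peaks were as wide as 0.840% to 90.6%. The share of H3K27me3 peaks touching H3K4me1 counted as unmoved at 40.0% with scores of at least 100 (22.2% before). H3K36me3 had no peak in the row, so a stricter score or overlap could not change its values. The count of 83 is therefore no measure of robustness. With scores of at least 100 in every list, the row kept 12 H3K4me1 peaks (19 before) and 5 H3K27me3 peaks (9 before), without the one at the KLK14 start (score 63.2). The covered share of the row relative to that of KLK1 to KLK4 rose to 2.54 for H3K4me3 (1.18 before) and to 5.62 for H3K4me1 (3.56 before). H3K27ac peaks joined over up to 5 kb made 5 clusters, the largest with 3681 covered bases, against 3 and 6103 with 10 kb. H3K27me3 peaks joined over up to 20 kb made 3 domains, the largest with 7721 covered bases, against 6 and 3308 with 5 kb. With tiles of chromosome 19 only, the share of tiles below the row was 37.4% for H3K4me3, 50.7% for H3K27ac, 55.0% for H3K4me1 and 73.7% for H3K27me3. Fewer peaks, other joins or other tiles enter by construction, and other causes were not tested. No value for H3K27ac relative to KLK1 to KLK4 could be had at scores of at least 100, since no H3K27ac peak was left in that interval. No paired analysis was possible because each mark's replicates were deposited as 1 combined list, and for the same reason no replicate could be left out.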

Other observations

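The kallikrein locus lay between places with H3K36me3 on either side. Below it, the H3K4me3 peak from 51305412 to 51309235 was 3824 bases wide, stood at the score ceiling of 3100 and was covered over 88.0% by H3K27ac and over 39.5% by H3K36me3. Above it, the H3K4me3 peak from 51610501 to 51612380 had a score of 2184, higher than that of any H3K4me3 peak in the row, and lay wholly inside an H3K27ac peak with a score of 686. The first H3K36me3 peak above the row, from 51601004 to 51602667, scored 397 and began 13.5 kb upstream of the KLK14 start. The genes at these places were not identified here.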
